A study of Mus musculus with 21 samples.

Results

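The telencephalon of wild-type mouse embryos was compared between E13.5 and E15.5 (embryonic days), a period of cortical neurogenesis. Of 40770 gene entries in the deposited expression table of the linc-Brn1b strain, the 13973 with a level of at least 1 FPKM (fragments per kilobase of transcript, scaled to the number of mapped fragments) at either age were kept. Both groups carried the genotype linc-Brn1b+/+ and no targeted allele, and each consisted of 2 libraries from whole telencephalon. They came from a strain made in hybrid 129S6/SvEv and C57BL/6N embryonic stem cells and crossed once to C57BL/6J, so the wild-type embryos share that mixed background. Wild-type brain at postnatal day 7 (P7, 2 libraries) and linc-Brn1b-/- telencephalon at E13.5 (2 libraries) and E15.5 (3 libraries by their labels), in which a lacZ cassette replaces the lincRNA, were used only for reference. The series holds 21 libraries in all.

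The table gives 1 FPKM value per group, pooled by the authors over its libraries. There is therefore no spread between embryos, no replicate check and no test for any difference given here, and depth is unknown. Differences are written as log2((E15.5 FPKM + 1)/(E13.5 FPKM + 1)), positive where the level was higher at E15.5, and a gene is called higher or lower where this difference reaches 1 in size, a 2-fold ratio of FPKM + 1. The added 1 FPKM makes the difference of a gene with a low level smaller than the ratio of its FPKM values.

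Neurons of the cerebral cortex are born from radial glia that line the ventricle, directly or by way of intermediate progenitors, and settle in layers from the inside outwards. Deep-layer neurons that project below the cortex are born first and upper-layer neurons that project within it are born later, while interneurons arrive from the ventral telencephalon. As neurogenesis advances, progenitors divide less often and change their output, and the neurons already born extend axons, express ion channels and begin to form synapses.

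Between the ages, 297 genes were at least 2-fold higher at E15.5 (2.13% of those measured) and 288 were at least 2-fold lower (2.06%). By any size, 7190 were higher and 6783 lower. Counts in the lists below stand beside these shares, and a few calls in a short list do not set it apart. The median difference over all measured genes was 0.01, the middle 50% of genes lay between -0.23 and 0.26, and 83.0% of genes differed by less than 1.5-fold. Some genes entered the comparison through 1 age alone: 581 were below 1 FPKM at E13.5 and 448 below it at E15.5. Such genes could differ in only 1 direction, and they make up 54 of the 297 higher and 81 of the 288 lower genes. The list counts below include them too. Of list genes 163 were called, and 139 where 1 FPKM was required at both ages. Examples are Drd1a, Inhba and Gabrb1 among the higher and Fgf17, Ebf2 and Otp among the lower ones. At the minimum level, Dnahc7b (1 FPKM at E13.5) was just inside and Vamp5 (0.997 FPKM at E13.5) just outside. At the limit for a call, Clu (difference 1.002) and Clspn (-1.001) were just inside, and Htr3a (0.999) and Cdca3 (-0.999) just outside.

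The tissue label was checked against region markers. Emx1, a dorsal marker, went from 47.97 to 32.2 FPKM, and Dlx1, which marks the ganglionic eminences, from 135 to 137. Markers of both the cortex and the ventral telencephalon were thus detected at each age. All 40 Hox entries, which mark hindbrain and spinal cord, were below 1 FPKM at both ages, with a highest value of 0.0371 FPKM. Of 27 genes listed for midbrain and hindbrain, 24 were below 1 FPKM at both ages and 8 were listed at 0, En1 and En2 being at most 0.0133 FPKM. Of 25 genes for thalamus and hypothalamus, 19 were below 1 FPKM at both ages. The highest of the other 6 was Lhx9, a factor of the developing thalamus, at 12.9 FPKM at E13.5 and 6.19 at E15.5. Of these 6, 2 were at least 2-fold lower at E15.5 (Otp, 3.19 to 0.533 FPKM, and Tcf7l2, 6.32 to 2.61). In knockout Otp and Tcf7l2 differed by only -0.24 and -0.28. The median of the 6 was -0.29 there, with 1 at least 2-fold lower, against -0.95 in wild type.

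Markers of other cells in the dissected tissue differed between the ages. Because these are bulk samples, fewer cells of a type and less RNA per cell cannot be told apart. Genes of meninges and fibroblasts had a summed level of 211 FPKM at E13.5 and 33.2 at E15.5 over the 22 listed genes. Of the 19 measured, 15 were at least 2-fold lower and none was higher, with a median difference of -1.67. Collagen III (Col3a1) went from 38.5 to 0.997 FPKM, a difference of -4.31, and the proteoglycan lumican (Lum) from 11.99 to 0.129 FPKM. Both are made by the connective tissue that covers the brain. The choroid plexus list, over 20 genes, summed to 226 FPKM at E13.5 and 282 at E15.5, most of it transthyretin (Ttr), which went from 146 to 231 FPKM, while 3 of 16 measured members, the hem and roof-plate genes Msx1, Rspo2 and Otx2, were at least 2-fold lower and none was higher (median -0.57). Endothelial and pericyte genes (sum 192 and 160 FPKM) held 1 higher and 1 lower of 23, with a median of -0.24. Microglial and macrophage genes (sum 96.9 and 77.4 FPKM) held 2 lower and none higher of 18, with a median of -0.09. The lower pair were Mrc1, a receptor of macrophages at the brain's borders, at 3.01 and 0.275 FPKM, and Sall1, which neural progenitors also express, at 35.0 and 16.2 FPKM. The part that any of these cells play in other differences was not tested.

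Globin mRNA, carried by red cells that remain in the tissue, differed most for the globins of embryonic (primitive) erythrocytes. The embryonic beta-like globin Hbb-y went from 982 FPKM at E13.5 to 26.7 at E15.5 and was listed at 0 in P7 brain, a difference of -5.15 between the embryonic ages. The embryonic alpha-like globin Hba-x went from 132 to 5.79 FPKM, and Hbb-bh1 from 11.5 to 0.533. Adult globins differed less, with Hbb-b1 at 106 and 72.4 FPKM and Hba-a2 at 200 and 118. Adult globin genes have near-identical copies among which reads may be divided, and the table places both entries at the neighbouring copy of the annotation, so their single values are uncertain. Of 9 measured erythroid genes, 4 were at least 2-fold lower and none was higher (median -0.76).

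**Figure D1:**
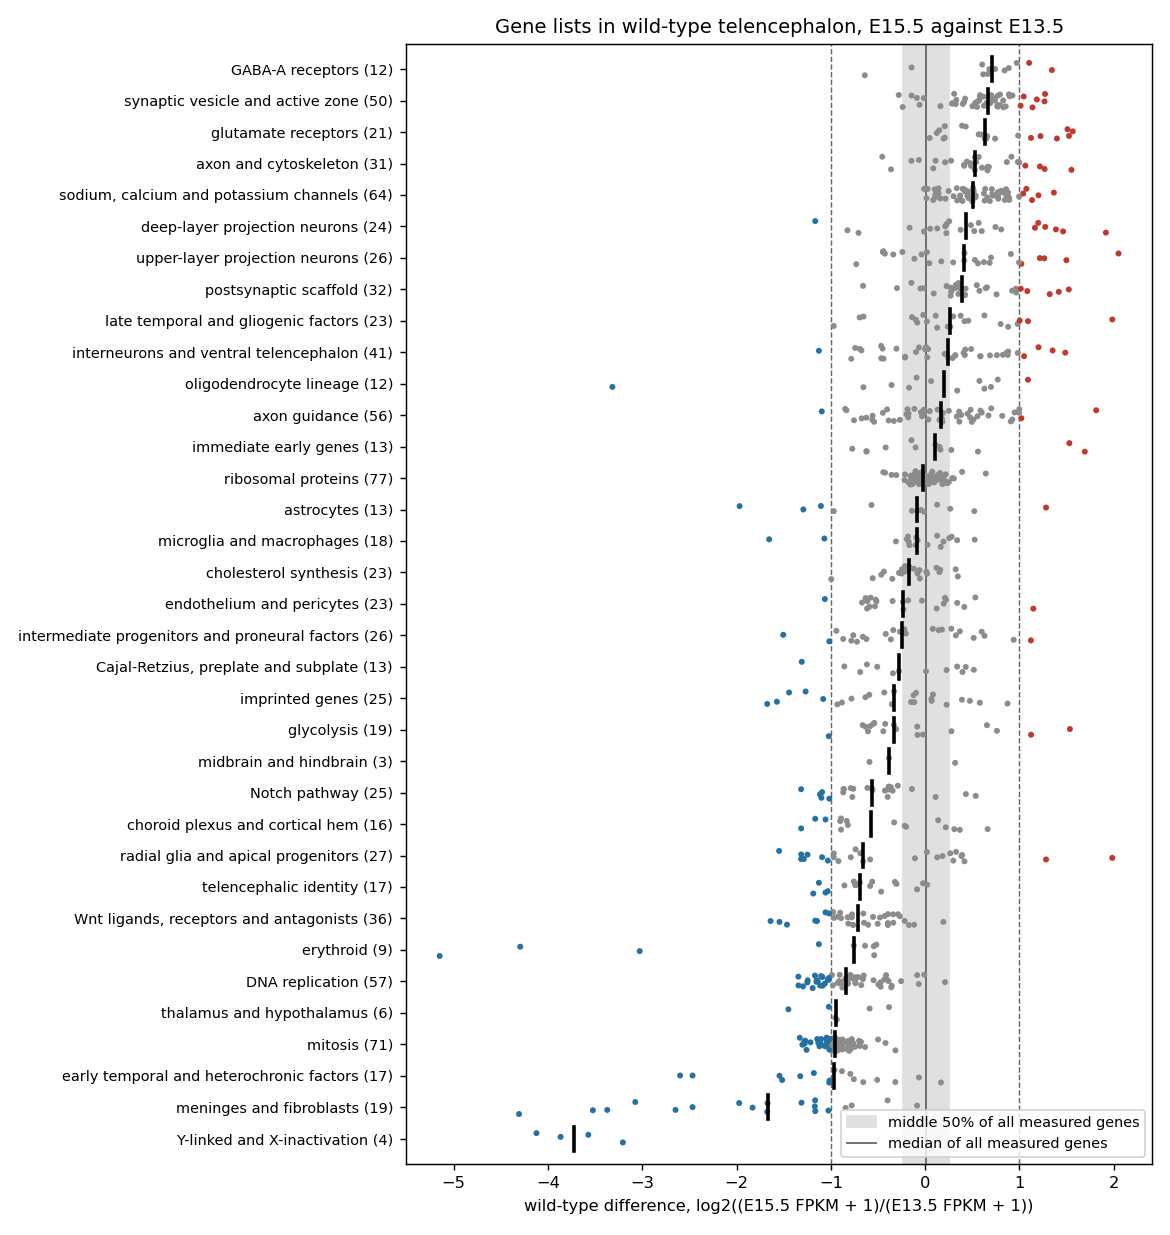
Each point is 1 measured gene of a list (number in brackets), placed by its wild-type difference between E15.5 and E13.5 on the log2(FPKM + 1) scale, in red where at least 2-fold higher at E15.5 and in blue where at least 2-fold lower. Black bars are list medians, ordered from GABA-A receptors (0.71) down to the Y-linked genes (-3.72), and the grey band holds the middle 50% of all 13973 measured genes.

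Genes of cell division were lower at E15.5 almost without exception. All 71 measured genes of mitosis had a level below that at E13.5, 24 of them by at least 2-fold and none higher, with a median of -0.95 against 0.01 for all genes. Differences ranged only from -1.33 to -0.32. The centromere protein Cenpf went from 34.7 to 13.2 FPKM, the ubiquitin-conjugating enzyme Ube2c, which serves the anaphase-promoting complex, from 122 to 48.8, and the activator of that complex, Cdc20, from 75.1 to 31.7. The proliferation antigen Mki67 stood at 104 FPKM at E13.5, 48.02 at E15.5 and 7.33 in P7 brain. Of 57 genes of DNA replication, 56 were lower, 18 by at least 2-fold, and none was higher by that size (median -0.84). The hemimethylated-DNA reader Uhrf1 went from 68.5 to 26.4 FPKM, the ribonucleotide reductase subunit Rrm2 from 130 to 50.7, and the helicase subunit Mcm2 from 67.1 to 26.8. Pcna, the sliding clamp of the replication fork, remained abundant at 169 FPKM, from 291 at E13.5. The exception was the origin recognition subunit Orc4, at 15.9 and 18.54 FPKM.

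Because these genes were lower together, the 150 bases before their annotated starts were read from RefSeq promoters (GRCm38.p6) and searched on both strands for letters known from cell-cycle promoters. These were the cell-cycle homology region (CHR, TTTGAA), the CCAAT box, and E2F-type letters (TTTCCCGC, TTTCGCGC, TTTGCCGC or TTTGGCGC, of which forms on opposite strands can overlap). Promoters were matched by symbol for 59 of 71 mitosis genes and 47 of 57 replication genes. CHR and CCAAT occurred together in 15 of the 59 mitosis promoters (25.4%), in 2 of the 47 replication promoters (4.26%) and in 2.63% of all 27025 genes of the promoter table. E2F-type letters were present in 6 mitosis promoters (10.2%), in 8 replication promoters (17%) and in 1.44% of all genes. These shares follow from which genes are listed and not from their levels. The 27025 genes were not limited to those measured here. The 3 mitosis genes with CHR and CCAAT that had the largest differences are printed 5′ to 3′ up to the base before the start, CHR and CCAAT letters of either strand in capitals:
Ube2c (chr2:164769779-164769928, plus strand): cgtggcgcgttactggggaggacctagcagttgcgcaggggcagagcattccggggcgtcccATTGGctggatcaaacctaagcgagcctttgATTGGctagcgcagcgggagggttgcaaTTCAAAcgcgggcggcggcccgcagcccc
Cdc20 (chr4:118437344-118437493, minus strand): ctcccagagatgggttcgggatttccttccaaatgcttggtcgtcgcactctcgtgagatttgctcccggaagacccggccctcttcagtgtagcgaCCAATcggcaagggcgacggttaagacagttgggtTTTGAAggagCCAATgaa
Mki67 (chr7:135716380-135716529, minus strand): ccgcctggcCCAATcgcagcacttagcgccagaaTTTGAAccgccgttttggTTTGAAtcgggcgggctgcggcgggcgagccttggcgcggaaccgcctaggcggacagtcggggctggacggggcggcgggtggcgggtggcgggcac

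The replication genes with E2F-type letters and the largest differences were 2 subunits of the MCM helicase, printed in the same way with the E2F-type letters alone in capitals:
Mcm5 (chr8:75109359-75109508, plus strand): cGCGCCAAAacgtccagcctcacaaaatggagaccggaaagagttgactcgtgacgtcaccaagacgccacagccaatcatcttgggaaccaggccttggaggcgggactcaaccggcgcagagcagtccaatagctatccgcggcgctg
Mcm6 (chr1:128359706-128359855, minus strand): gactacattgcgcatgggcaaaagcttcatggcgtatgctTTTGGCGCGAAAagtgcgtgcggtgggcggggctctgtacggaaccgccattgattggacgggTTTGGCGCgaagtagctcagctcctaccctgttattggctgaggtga
Mcm5 went from 56.0 to 23.9 FPKM and Mcm6 had a difference of -1.03. The letters describe the sequence and say nothing of whether a factor bound there in these embryos.

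Progenitor factors were lower as well, though less evenly. Of 27 genes of radial glia and apical progenitors, 7 were at least 2-fold lower and 2 higher (median -0.66). The intermediate filament Nes, a marker of neural progenitors, went from 132 to 55.2 FPKM, the progenitor factor Sox2 from 100.4 to 50.8, and its X-linked relative Sox3 from 22.8 to 7.15. The Notch effectors Hes5 and Hes1 went from 46.9 to 18.3 and from 21.1 to 9.38 FPKM. Vim, another filament, went from 537 to 322 FPKM, with a difference of -0.74 that did not reach 2-fold. Going the other way were the extracellular matrix glycoprotein tenascin C (Tnc), at 5.97 FPKM at E13.5 and 26.6 at E15.5, and Aldh1l1, a folate enzyme used as a marker of astroglia, at 3.71 and 10.5. The lipid-binding protein Fabp7, made by radial glia, was 516 FPKM at E13.5 and 674 at E15.5.

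Of the 25 genes of the Notch pathway, which keeps progenitors from differentiating, 22 were lower and 5 of them by at least 2-fold (median -0.56). These 5 were the effectors Hes1, Hes5 and Hey1, the receptor Notch3 and the ligand Dll1, the last at 28.8 and 13.7 FPKM. Of 36 Wnt ligands, receptors and antagonists, 35 were lower, 7 by at least 2-fold and none higher by that size (median -0.71). The repressor Tcf7l1 went from 15.4 to 4.27 FPKM, and Wnt8b, a ligand of the cortical hem, from 6.50 to 1.57. The ligand Wnt7b, which cortical neurons make, was 36.6 FPKM at E13.5 and 42.0 at E15.5. Among 17 genes of telencephalic identity, the regional factors Emx2, Otx2, Nkx2-1 and Dmrta2 were at least 2-fold lower and none was higher (median -0.69). Emx2 went from 30.3 to 14.3 FPKM and Lhx2, the selector of cortical identity, from 147 to 88.4.

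The 17 measured factors of the early temporal program, which progenitors express before mid-neurogenesis and then lose, had a median of -0.96. Of these, 8 were at least 2-fold lower and none was higher. The chromatin protein Hmga2, which favours self-renewal of young stem cells, went from 17.3 FPKM at E13.5 to 2.02 at E15.5 and 0.156 in P7 brain, a difference of -2.60. The retinoic acid binding protein Crabp2, which meningeal cells also make, went from 32.6 to 5.08 FPKM. Of the D-type cyclins that drive G1, Ccnd1 went from 57.1 to 19.3 FPKM and Ccnd2 from 265 to 116. The fetal RNA-binding protein Igf2bp1 went from 16.1 to 5.83 FPKM, and its relatives Igf2bp2 and Igf2bp3 had differences of -0.96 and -0.79. Lin28b, the fetal regulator of let-7, was already low, at 2.93 and 2.16 FPKM.

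Hmga2 is a textbook target of the let-7 microRNAs, which mature during neurogenesis, and its sites are shown for that reason. The 9 family members in RefSeq share 1 seed (bases 2 to 8, in capitals), as in these:
let-7a-5p: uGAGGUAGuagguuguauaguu
let-7b-5p: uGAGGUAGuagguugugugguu
let-7i-5p: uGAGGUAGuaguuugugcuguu
The longest annotated 3′ UTR of Hmga2 (GENCODE, NCBIM37, chromosome 10, minus strand, 3014 bases) holds 4 matches to that seed, printed 5′ to 3′ with the match in capitals:
Hmga2 site 1 (chr10:119801280-119801303): cgccgacattcaatttCTACCTCa
Hmga2 site 2 (chr10:119800043-119800066): tccccactcctcaataCTACCTCt
Hmga2 site 3 (chr10:119799605-119799628): cctgatttgcaaggaaCTACCTCc
Hmga2 site 4 (chr10:119798747-119798770): caatcaaaacacactaCTACCTCt
For each gene the longest annotated 3′ UTR was read. At least 1 such match was present in 10.6% of 12007 measured genes with an annotated 3′ UTR, and only 7 genes, Hmga2 included, had 4 or more. Across those genes, the median difference was -0.028 with a match and -0.0027 without. In the early list, Igf2bp1 also has 4 matches and was lower (-1.32), Lin28b has 4 and differed by -0.32, Hic2 has 4 and differed by -0.07, and Nr6a1 has 8 and differed by 0.17. Crabp2, Wnt8b, Ccnd1 and Ccnd2 have none. The mature miRNAs were not measured, and all 11 let-7 precursor entries were listed at 0 FPKM at both ages.

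Late temporal and gliogenic genes pointed the other way with a smaller median (0.27). Of 23, 3 were at least 2-fold higher and none lower. These were Tnc, the secreted chaperone Clu (9.83 to 20.7 FPKM) and the oligodendrocyte lineage factor Olig1 (2.25 to 5.91). By any size, 16 genes of the list were higher and 7 lower. Among the lower ones were Sox9 (28.2 to 13.9 FPKM) and Olig2, the relative of Olig1 (11.1 to 6.68). The nuclear factor I genes, which promote the onset of gliogenesis, were divided: Nfix went from 57.5 to 114 FPKM, Nfib was 85.4 and 84.2, and Nfia went from 26.3 to 15.9. Of the 17 astrocyte genes, Gfap, Aqp4, S100b and Agt were below 1 FPKM at both ages, with the filament protein Gfap at 0.317 and 0.431 FPKM and the water channel Aqp4 at 0.459 and 0.313, against 101.3 and 81.0 FPKM in P7 brain. The other 13, several of which radial glia also express, included Aldoc (78.0 and 73.5 FPKM), Glul (62.8 and 60.8) and Sparcl1 (25.6 and 37.2), and 1 was higher and 3 lower (median -0.08). The gap junction genes Gja1 (40.0 to 9.49 FPKM) and Gjb6 (1.501 to 0.0215), which meningeal cells express too, were among the lower ones. Of 12 oligodendrocyte genes, Olig1 was higher and the tight junction gene Cldn11, also made by meninges, lower at 9.96 and 0.0997 FPKM (median 0.20).

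**Figure D2:**
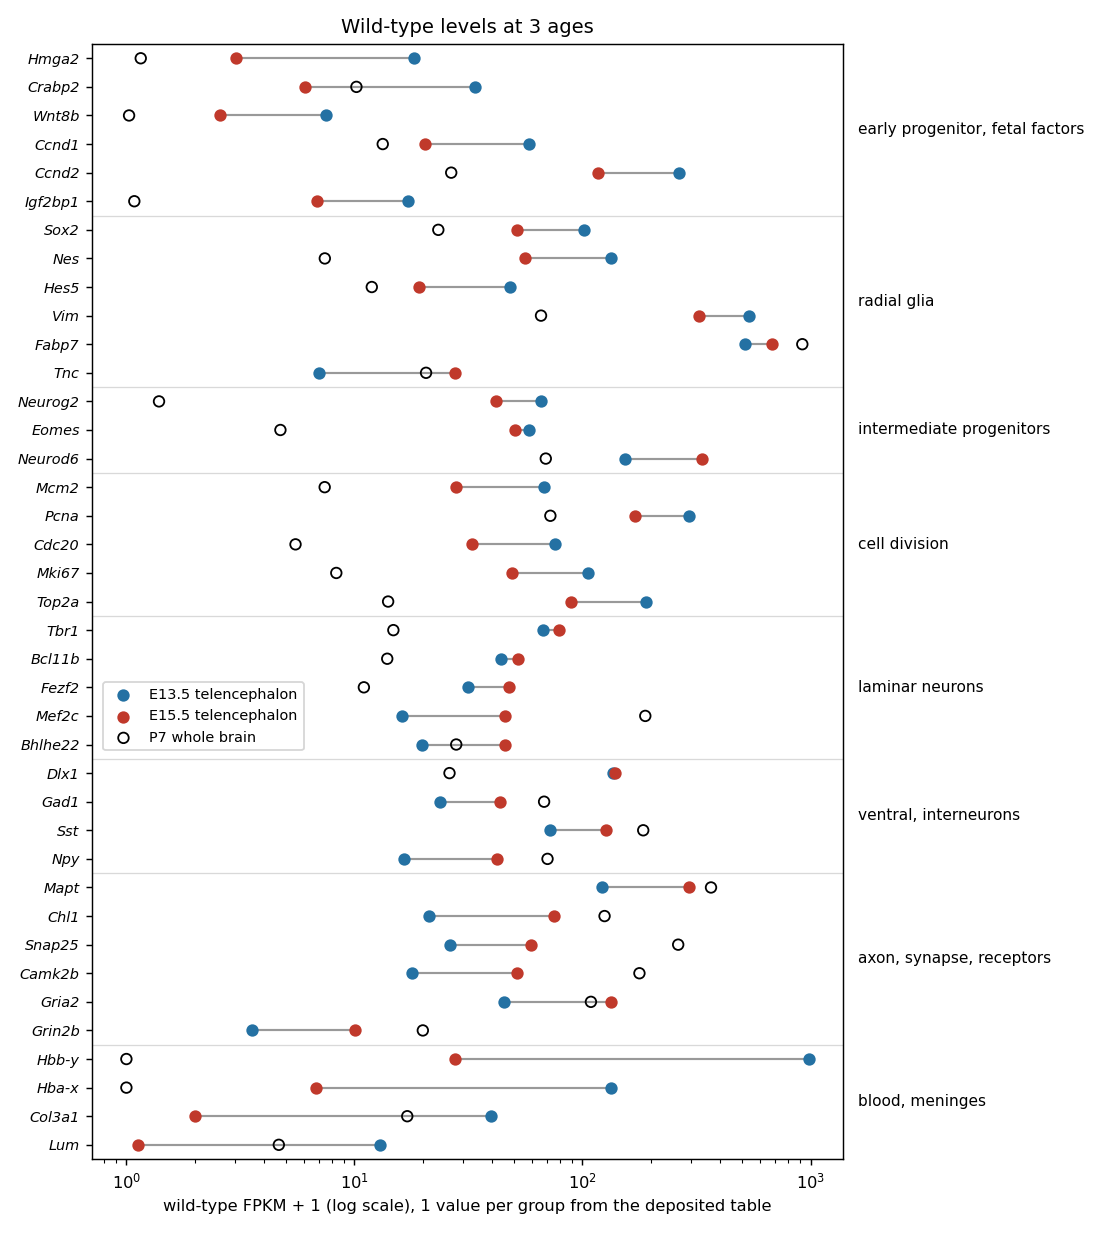
Wild-type FPKM + 1 on a log axis at E13.5 (blue) and E15.5 (red) in telencephalon and at P7 in whole brain (open circles), 1 pooled value per group with no error available. Factors of early progenitors, radial glia and cell division lie to the left at E15.5, apart from Fabp7 and Tnc, while Mef2c and the axonal and synaptic genes lie to the right.

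Proneural and intermediate progenitor genes were mixed (median -0.24), with 1 of 26 at least 2-fold higher and 2 lower. Neurog2, which starts neuronal differentiation in the cortex, went from 64.8 to 40.6 FPKM and its relative Neurog1 from 6.47 to 1.63. Eomes, the marker of intermediate progenitors, was 57.2 FPKM at E13.5 and 49.5 at E15.5. The factors that follow it in new neurons were higher, Neurod2 at 53.2 and 103 FPKM and Neurod6 at 153 and 334. In knockout the differences of Neurog2, Eomes and Neurod6 were -0.47, -0.62 and 0.65, against -0.66, -0.21 and 1.12 in wild type.

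Neurons of the cortical layers were represented by higher levels of many markers. Of 26 upper-layer genes, 5 were at least 2-fold higher and none lower (median 0.42). The activity-regulated factor Mef2c went from 15.2 to 44.8 FPKM and the laminar factor Bhlhe22 from 18.8 to 44.9. Other upper-layer markers differed less. Cux2 was 12.4 and 18.7 FPKM, Cux1 64.4 and 54.3, Pou3f2 20.2 and 27.4, and Pou3f3 (also called Brn1) 81.5 and 82.5. Rorb, a factor of layer IV, was still low at 1.52 and 1.84 FPKM.

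Deep-layer markers had a similar median (0.43), with 6 of 24 at least 2-fold higher and 1 lower. The selectors of subcortical projection neurons, expressed at both ages, differed by less than 2-fold: Fezf2 was 30.4 and 46.6 FPKM, Bcl11b (Ctip2) 42.8 and 51.2, and Tbr1 66.4 and 77.7. Larger differences were found in other markers, such as the transcription factor Nfe2l3 (1.66 to 9.03 FPKM), the thyroid hormone binding protein Crym (4.44 to 13.98) and the neurotensin receptor Ntsr1 of layer VI (1.76 to 5.35). The lower member was the Wnt agonist Rspo2, also counted in the hem list. Of 13 genes of Cajal-Retzius, preplate and subplate cells, the earliest neurons, only Ebf2 reached 2-fold, at 3.61 and 0.859 FPKM (median -0.28). Reln, the glycoprotein that Cajal-Retzius cells secrete, was 36.3 and 48.1 FPKM, and Trp73 of the same cells 6.30 and 4.76.

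Genes of interneurons and the ventral telencephalon were mixed, with 4 of 41 at least 2-fold higher and 1 lower (median 0.24). The progenitor factor of the medial ganglionic eminence, Nkx2-1, went from 23.8 to 10.4 FPKM. Several products of postmitotic neurons were higher. The striatal phosphoprotein Ppp1r1b (DARPP-32) went from 7.23 to 22.1 FPKM, neuropeptide Y (Npy) from 15.4 to 41.0 and somatostatin (Sst) from 70.9 to 126. The dopamine receptor gene listed as Drd1a went from 0.599 to 2.68 FPKM. The GABA-synthesizing enzymes differed from each other, with Gad1 at 22.6 and 42.5 FPKM and Gad2 at 27.6 and 26.3.

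Genes of neuronal excitability and transmission were higher at E15.5 almost throughout. All 21 measured glutamate receptor genes were higher at E15.5, 6 by at least 2-fold (median 0.63). The AMPA receptor subunit Gria2 went from 44.3 to 133 FPKM and Gria1 from 11.5 to 31.9, the NMDA receptor subunits Grin1 from 4.22 to 11.2 and Grin2b from 2.55 to 9.11, and the metabotropic receptor Grm5 from 3.91 to 13.1. The kainate receptor subunit Grik2 was at 15.53 and 16.1 FPKM. Of 12 GABA-A receptor subunits, 10 were higher, 2 by at least 2-fold (Gabra5 and Gabrb1, median over the list 0.71), while Gabra2 went from 13.6 to 8.40 FPKM. Of 64 subunits of sodium, calcium and potassium channels, 63 were higher, 5 by at least 2-fold (median 0.51). The M-current channel Kcnq3, at 4.36 and 12.8 FPKM, had the largest difference (1.37), and Kcnh7 alone was not higher, at 4.16 and 4.12.

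Presynaptic genes were higher in 44 of 50, by at least 2-fold in 6 and lower by that size in none (median 0.67). The fusion-clamp protein complexin (Cplx1) went from 12.4 to 31.3 FPKM, the Rab3 effector rabphilin (Rph3a) from 7.05 to 18.3 and the SNARE protein Snap25 from 25.2 to 58.5. The last reached 262 FPKM in P7 brain. Postsynaptic genes were higher in 27 of 32 and by at least 2-fold in 5, none lower (median 0.39). Camk2b, a kinase subunit of the postsynaptic density, went from 16.9 to 50.4 FPKM and the scaffold Dlg2 (PSD-93) from 7.96 to 22.9. Among 31 axonal and cytoskeletal genes, 4 were at least 2-fold higher (Mapt, Stmn4, Nrgn and Rbfox1) and none lower (median 0.53). The microtubule-binding protein tau (Mapt) went from 120 to 291 FPKM, and the growth-cone protein Gap43 was at 175 and 346. The abundant tubulin regulator Stmn1 was 1986 FPKM at E13.5 and 2642 at E15.5, and neuronal tubulin (Tubb3) was 869 and 1181.

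Axon guidance genes, in contrast, had a median of 0.16. Of 56, 2 were at least 2-fold higher and 1 lower, near the shares of all measured genes (2.13% and 2.06%). The higher pair were cell adhesion molecules of growing axons, Chl1 (20.3 to 73.9 FPKM) and Cntn2 (42.8 to 87.8). The lower one was Robo3, at 2.76 and 0.756 FPKM. Slit2, a ligand of the Robo family, had a difference of -0.85.

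Several lists outside neurogenesis served for comparison. None of 77 ribosomal protein genes differed by 2-fold (median -0.02, range -0.44 to 0.64), and neither did any of 23 genes of cholesterol synthesis (median -0.17). Glycolysis had 2 higher and 1 lower of 19 (median -0.33). Its members differed in direction, the neuronal enolase Eno2 going from 6.50 to 15.3 FPKM and hexokinase 2 (Hk2) from 8.22 to 3.54. Of 25 imprinted genes, the growth-related Igf2, Peg12, Grb10, Dlk1 and Mest were at least 2-fold lower and none higher (median -0.33). The noncoding Meg3, from the same domain as Dlk1, went from 116 to 214 FPKM. In knockout Meg3 was 175 and 185 FPKM, a difference of 0.08 against 0.87 in wild type. Grb10, an adaptor that restrains growth factor signalling, went from 131 to 47.7 FPKM. Igf2 (46.1 to 13.7 FPKM) is abundant in meninges and is also a member of that list. Of 13 immediate early genes, Nr4a3 (2.69 to 10.9 FPKM) and Fosl2 (1.46 to 6.10) were at least 2-fold higher and none lower (median 0.11).

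**Figure D3:**
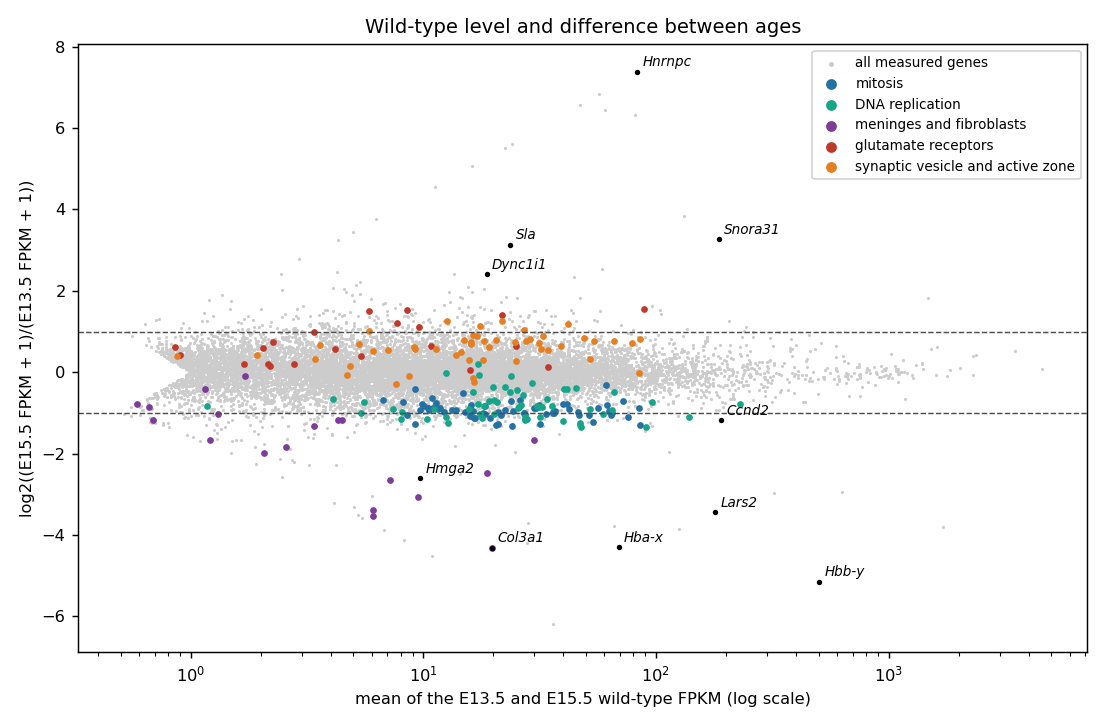
The mean of the E13.5 and E15.5 wild-type FPKM (log axis) is plotted against the difference between the ages for all 13973 measured genes (grey) and 5 lists (colours), small black points being single genes named in the plot, with dashed lines at a 2-fold difference. Mitosis genes lie between -1.33 and -0.32 and replication genes between -1.34 and 0.21, while meningeal genes reach -4.31 and glutamate receptors 1.57.

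Single genes with the largest differences fell outside these lists in part. Of the 15 largest positive differences among genes with a conventional symbol, 10 belonged to snoRNA or miRNA entries such as Snora31 (34.1 to 337 FPKM), Snora3 (listed at 0, then 32.4) and Mir697 (listed at 0, then 113.9). Of the 25 measured entries of these short RNAs, 14 were called higher and 6 lower. Mir697 was listed at 0 in the P7 group and in both knockout groups. The first on the list, Hnrnpc, and Tmem229b among the lowest (21.7, then listed at 0) are entries for which the authors' software marked its estimate as failed or as exceeding its limits. The entry named CYL2 (72.3, then listed at 0) lies at the locus of Ccnd2, and Rtn-1A (0.00212, then 5.84) at that of Rtn1, so their values depend on how reads were divided between overlapping entries.

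The others among the 15 were protein-coding genes without a failed estimate, of which Mc4r is alone at its locus and Sla and Dync1i1 share theirs with 2 other entries each. Sla (GENCODE, NCBIM37, chr15:66612381-66663391, minus strand), which encodes a Src-like adaptor, went from 4.01 to 43.1 FPKM and was 40.5 in P7 brain. Dync1i1, the neuronal intermediate chain of dynein, went from 5.23 to 32.2 FPKM. Mc4r, a melanocortin receptor, went from 0.624 to 7.90 FPKM and was back at 1.48 in P7 brain. All 3 stood higher at E15.5 in knockout as well. Among the 15 most negative were Hbb-y, Hba-x, 4 genes of the meningeal list (Col3a1, Lum, Col1a1 and Col1a2), Cldn11, 4 genes of the Y chromosome and Lars2.

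Genes with a conventional symbol that were called in the same direction in the knockout pair were also ranked, a choice made after the values were seen. There were 109 higher and 107 lower genes of this kind, after small RNA entries and failed estimates were left out. Among the higher genes that followed Sla, Mc4r and Dync1i1 were Caln1, a calcium-binding protein of neurons (0.957 to 7.26 FPKM), Scrg1 (0.380 to 4.57) and Tnc. Further down were the transcription factors Hivep2 (4.61 to 21.1 FPKM) and Rxrg (2.10 to 9.83), the synaptic adhesion protein Clstn2 (5.84 to 23.4), the G protein subunit Gnal (5.67 to 23.0) and the calcium sensor Vsnl1 (2.66 to 10.7, and 166 in P7 brain). The most abundant of the 30 most positive was Mpped1, a metallophosphoesterase, at 46.9 FPKM at E13.5 and 146 at E15.5. On the negative side, Hmga2, Dmrta1 (4.79 to 0.573 FPKM), Tcf7l1 and Sox3 were regulators of progenitors among the 30 most negative, of which 9 belong to the meningeal list and 3 are embryonic globins.

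Of 773 measured long intergenic RNA entries with a linc- name, 17 were at least 2-fold higher (2.2%) and 15 lower (1.94%), beside 2.13% and 2.06% of all measured genes (median 0.15). The 3 highest were linc-4930519F16Rik-1 (0.388 to 120.9 FPKM), linc-Frmd4a-1 (0.0885 to 4.81) and linc-Tfap2c (1.24 to 9.48). The first of these stood at 108.7 FPKM in knockout telencephalon at E13.5 and 56.3 at E15.5. It spans Xist (NCBIM37, chrX:100655714-100678556), the RNA that silences an X chromosome in females, and over the 4 telencephalon groups it was low where the Y-linked genes were highest and high where they were near 0. The 3 lowest were linc-Esp38 (53.8 to 1.97 FPKM), linc-2610528E23Rik-AS (235 to 15.3) and linc-Pkia-2 (3208 to 229). All 3 share their loci with other entries and were lower at E15.5 in knockout as well. In P7 brain they stood at 7.55, 138 and 3148 FPKM. Age and library preparation cannot be told apart for these differences.

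At the locus after which the strain is named, no gene described here reached a 2-fold difference. linc-Brn1b was 1.599 FPKM at E13.5, 2.50 at E15.5 and 0.799 in P7 brain, and it was listed at 0 in both knockout telencephalon groups. The entry AK011913 has the same locus and was higher and level, at 8.71 FPKM at E13.5, 8.73 at E15.5 and 1.06 in P7 brain. In knockout AK011913 was 0.0267 FPKM at E13.5 and listed at 0 at E15.5. The values of both entries depend on how reads were divided between them. The protein-coding neighbour Pou3f3, a POU factor of upper-layer neurons and their progenitors, had a difference of 0.02. The entry 2610017I09Rik (linc-Brn1a), on the other side of Pou3f3, was 165 and 191 FPKM.

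The same comparison in linc-Brn1b-/- telencephalon, which shares no library with the wild-type pair, showed which differences recurred. Over the 13973 genes, 439 were at least 2-fold higher at E15.5 in knockout (3.14%) and 199 at least 2-fold lower (1.42%). Of the 297 genes higher in wild type, 136 (45.8%) were also called higher in knockout, 279 had the same sign and 14 the opposite one, and 4 did not differ. Of the 288 lower genes, 125 (43.4%) were also called lower, 267 had the same sign and 15 the opposite one, and 6 did not differ. Seen from the other side, 30.98% of the genes called higher in knockout and 62.8% of those called lower were called in wild type. Wild-type and knockout differences of 1 gene lay a median of 0.19 apart, and 342 genes lay at least 1 apart. Both pairs were scaled together by the authors, so the gap is a description and not a measure of replicate error.

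List medians in knockout were -0.94 for the early temporal program and -0.76 for erythroid cells, within 0.03 of wild type. For mitosis the median was -0.85, with 16 genes at least 2-fold lower against 24 in wild type, and for Notch -0.52, with 1 against 5. DNA replication genes had a median of -0.55 in knockout and -0.84 in wild type, and 5 were at least 2-fold lower against 18. For some members the wild-type and knockout pools differed at E13.5 and hardly at E15.5. Genotype and library cannot be told apart in these values. Rrm2 was 130 FPKM in wild type and 73.3 in knockout at E13.5, then 50.7 and 51.5. Pcna was 291 and 203, then 169 and 173. Top2a was alike at both ages, at 189 and 195, then 88.5 and 92.6. Medians were also nearer to 0 in knockout for synaptic vesicle genes (0.44 against 0.67), upper-layer genes (0.16 against 0.42), deep-layer genes (0.25 against 0.43) and interneurons (0.01 against 0.24). Meningeal genes were lower in knockout as well, 11 of 19 by at least 2-fold (median -1.22). The ribosomal protein list did not recur: all 77 genes were higher at E15.5 in knockout, 46 by at least 2-fold, with a median of 1.09 against -0.02 in wild type. The abundant Rpl41 and Rpl23a stood apart in the knockout E13.5 pool. Rpl41 was 436 FPKM there and 1627 in wild type at E13.5, then 1638 and 1556 at E15.5. Rpl23a was 979 and 1292, then 1523 and 1489. FPKM summed over all entries was 381511 in that pool, and 432380 to 435167 in the other telencephalon groups. Ttr did not recur either, with a difference of 0.66 in wild type and -6.31 in knockout, where the choroid plexus list had a median of -1.23. Y-linked genes ran in opposite directions. In wild type, Eif2s3y, Ddx3y, Kdm5d and Uty stood between 8.23 and 16.5 FPKM at E13.5 and did not exceed 0.00554 FPKM at E15.5. In knockout they did not exceed 0.00723 FPKM at the younger age and lay between 2.53 and 9.94 FPKM at the older one. The entry that spans Xist ran against them, from 0.388 to 120.9 FPKM in wild type and from 108.7 to 56.3 in knockout. The wild-type pools thus differed in these sex-linked RNAs, while the labels do not give the sex of the embryos. Make-up of the pools by sex and age therefore cannot be told apart in wild type. The 485 measured genes of the X chromosome had a median difference of 0.02.

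**Figure D4:**
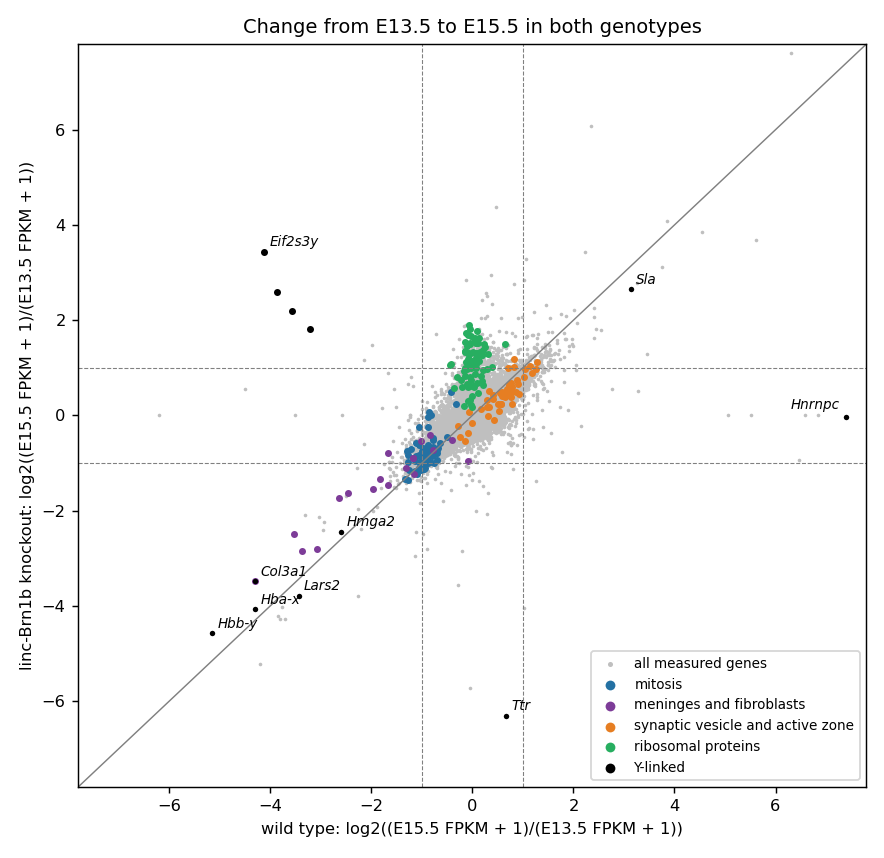
The difference from E13.5 to E15.5 in wild type (horizontal) is plotted against that in linc-Brn1b-/- telencephalon (vertical) for all measured genes, both as log2 of FPKM + 1, small black points being single named genes and large ones Y-linked genes, with lines at 2-fold and the diagonal of equal differences. Most mitosis, meningeal and synaptic genes have the same sign in both, ribosomal proteins above 0 on the vertical axis alone and Y-linked genes in the upper left, and 2 entries listed at 0 in knockout at E15.5 (Eef1a1 and Tuba1a) lie below the frame.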

How the data were processed

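Polyadenylated RNA was sequenced from wild-type telencephalon at E13.5 and E15.5 with 2 libraries per age. According to the submitters' processing notes, reads were aligned to mm9 with TopHat2 and quantified with Cufflinks 2.0.2. The authors deposited Cuffdiff2 FPKM values as 1 pooled value per group, scaled across all linc-Brn1b groups. They hold no values per library (0 such columns). The authors' fold changes, test statistics, p-values and q-values were not used.

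Entries with at least 1 FPKM at either age were kept, and log2((E15.5 + 1)/(E13.5 + 1)) was computed with Python 3.11.15 and pandas 2.3.3. A call was a size of at least 1. The call rule was run on wild-type E13.5 values well above the minimum level, with planted changes beyond the threshold and no noise. Their recovery was fixed in advance, so that run checks the code alone and not low levels or spread between pools. Locus starts in the table count from 0, and 1 was added. A locus can span overlapping entries. Genes, promoters and UTRs were matched by symbol to GENCODE (NCBIM37) and RefSeq (GRCm38.p6).

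The genes were grouped in 35 lists of 1016 genes, of which 886 were measured. The members and lists were chosen with earlier results of these data known. Named genes were the 15 highest and 15 lowest differences among conventional symbols, for each list up to 2 highest, 2 lowest and 2 most abundant members, the 3 highest and lowest linc- entries, the linc-Brn1b locus and Y-linked genes. Other named genes, including further list members given for their known roles, were chosen after their values were seen. The alternatives were other pseudocounts, minimum levels, centring, fold thresholds and sets of entries. Some genes that these rules name are not reported here.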

Additional observations from a re-analysis of the deposited data

Results flagged for a closer look

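The Y-linked genes were picked out because wild type and knockout differed in opposite directions, and the difference between the genotypes was not tested. From E13.5 to E15.5, Eif2s3y differed by -4.12 in wild type and 3.44 in knockout, Ddx3y by -3.87 and 2.58, Kdm5d by -3.57 and 2.19, and Uty by -3.21 and 1.81, all on the log2(FPKM + 1) scale. The entry that spans Xist differed by 6.46 in wild type and -0.94 in knockout, against the direction of the Y-linked genes. Each value is 1 pool per group, and the make-up of the pools by sex was not given in the labels.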

How the results depend on the processing

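Counts of called genes depended on the pseudocount, the fold and the set of entries. With a pseudocount of 0.1 FPKM, 613 genes were higher, 573 lower and 592 called alike in knockout, against 297, 288 and 261 with 1 FPKM. At 1.5-fold these counts were 1219, 1155 and 1352. Requiring the same call in knockout left 136 higher and 125 lower. Restricted to entries alone at their locus, an alternative chosen after the values were seen, they were 116, 151 and 126, with 6830 entries tested. The counts stayed within 1.5 times under the other minimum levels, centring, and without X and Y genes, unconventional names, small RNA entries or failed estimates. The number of list genes called (163) stayed within 1.5 times under all 5 alternatives run on the lists. Of 174 list medians recomputed, 158 moved by less than 0.25, and 5 changed sign: Cajal-Retzius genes to 0.01 with no minimum and 0.12 at 5 FPKM or more, and at that minimum the oligodendrocyte (-0.17), hindbrain (0.32) and immediate early (-0.42) lists.

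No paired analysis was possible because the table holds no values per library and the wild-type groups share no replicate number, and leaving out a replicate was not possible for the same reason. Sequencing depth is unknown, so no floor can be given for entries listed at 0. A value of 0 is given here only as listed. The table places 32 of the measured entries, 4 of them list genes, away from the GENCODE gene of the same symbol. Age, dissection and library preparation cannot be told apart with 1 pool per age.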

Other observations

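A set of entries was far lower at E15.5 than at both other wild-type ages, a pattern chosen after the values were seen. linc-Pkia-2 was 3208 FPKM at E13.5, 229 at E15.5 and 3148 in P7 brain. Lars2, which encodes the mitochondrial leucyl-tRNA synthetase, was 329, 29.4 and 342 FPKM at the same ages, and linc-2610528E23Rik-AS was 235, 15.3 and 138. linc-Gm20581-2 was 1120, 145 and 899 FPKM, and shares its locus with linc-Esp38. Knockout telencephalon showed the same differences between the embryonic ages, with linc-Pkia-2 at 4680 and 241 FPKM and Lars2 at 433 and 30.4. These entries were thus lower in the E15.5 pools of both genotypes than in the E13.5 pools, and in wild type lower than at P7 too. Age and library preparation cannot be told apart here, and the cause was not tested.

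The entries AK220016 and AK187054, which share a locus, moved the opposite way, from 16.3 to 248 and from 1.05 to 162 FPKM in wild type, and AK220016 from 18.54 to 329 in knockout. In wild-type P7 brain they stood at 15.8 FPKM and were listed at 0.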
